A study of Mus musculus with 9 samples.

Results

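Fatty acid and triglyceride synthesis was followed through 10 genes: Srebf1, Thrsp, Acly, Me1, Acaca, Acacb, Fasn, Elovl6, Scd1 and Gpam. The genes were taken by symbol, as the core enzymes and regulators of the pathway, from the 24421 gene symbols of the deposited tables, and all 10 were found. RNA sequencing had been applied to 9 mouse libraries, 7 from muscle and 2 from kidney. The muscle groups were tumour-bearing mice given MDC, tumour-bearing mice given PBS, beta-arrestin knockout mice given DKK1, beta-arrestin knockout mice given PBS, wild type mice given DKK1 and wild type mice given PBS. The kidney groups were tumour-bearing mice given PBS and wild type mice given PBS. Wild type PBS muscle had 2 libraries and every other group had 1. The labels do not say which tumour was used, what MDC stands for, which beta-arrestin gene was deleted, or the strain, age and muscle, and they do not say whether the wild type pair came from separate animals. P-values in muscle therefore measure only the spread between these samples, which may be technical. The pair also falls into different sets of the deposited tables, B and C, described below. Every single library is assumed to vary like that pair. DKK1 is the name of a secreted inhibitor of Wnt signalling, and PBS is a saline buffer given as the vehicle.

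Fatty acids are made in the cytosol from citrate: ATP citrate lyase (Acly) releases acetyl-CoA, the acetyl-CoA carboxylases (Acaca, Acacb) turn it into malonyl-CoA, and fatty acid synthase (Fasn) builds palmitate with NADPH, part of which comes from malic enzyme (Me1). Elovl6 lengthens palmitate to stearate, Scd1 introduces the double bond that makes oleate, and Gpam attaches the first fatty acid to glycerol phosphate on the way to triglyceride. The pathway is most active in liver and in fat cells, where the transcription factor SREBP-1 (Srebf1) and the small protein Spot 14 (Thrsp) favour it. Muscle fibres use Acacb mainly to make the malonyl-CoA that holds back fatty acid oxidation. Adipoq, which encodes the hormone adiponectin, is made by fat cells and served as the measure of fat cell RNA in each library.

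Promoter sequence was available from RefSeq for 9 of the 10 genes, in 13 windows on build GRCm38.p6. The 4 sequences shown are the last 150 bases before the annotated start, 5′ to 3′, for genes whose levels moved together across muscle libraries. Capitals mark CCAAT boxes (CCAAT on either strand) and GC boxes (GGGCGG on either strand).
Fasn promoter, chr11:120824548-120824697, minus strand: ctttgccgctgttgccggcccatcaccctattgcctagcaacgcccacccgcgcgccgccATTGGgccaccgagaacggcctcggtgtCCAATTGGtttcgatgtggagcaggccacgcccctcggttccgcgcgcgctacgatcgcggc
Thrsp promoter, chr7:97417551-97417700, minus strand: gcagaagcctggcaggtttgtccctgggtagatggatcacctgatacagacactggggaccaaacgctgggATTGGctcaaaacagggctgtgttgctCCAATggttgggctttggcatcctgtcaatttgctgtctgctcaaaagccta
Acly promoter, chr11:100528001-100528150, minus strand: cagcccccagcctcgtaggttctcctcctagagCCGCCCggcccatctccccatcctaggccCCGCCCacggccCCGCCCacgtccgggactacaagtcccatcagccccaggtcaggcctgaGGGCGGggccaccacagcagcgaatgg
Elovl6 promoter, chr3:129532236-129532385, plus strand: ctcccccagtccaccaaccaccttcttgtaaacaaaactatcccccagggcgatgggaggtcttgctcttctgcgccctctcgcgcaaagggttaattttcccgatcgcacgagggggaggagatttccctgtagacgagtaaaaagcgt
Both strands of the 250 bases before each start were searched. A CCAAT box was found for 6 of the 9 genes (Acacb, Fasn, Gpam, Me1, Srebf1 and Thrsp). By window it was found in 7 of the 13, and in 33.8% of all 32851 promoter windows. In Fasn the 3 matches begin 90, 62 and 59 bases before the start and the last pair overlap, and in Thrsp the matches begin 79 and 52 bases before it. A GC box was found for 4 of the 9 genes (Acly, Gpam, Me1 and Srebf1), with 4 copies in Acly. By window it was found in 5 of the 13, and in 32.7% of all windows. Neither the sterol response element written as TCACNCCAC nor the E-box CACGTG was found in any of the 13 windows. They were present in 1.05% and 6.02% of all windows. For Acaca and Acacb the only window lies inside the gene, so the sequence before the first base of the gene was not searched. The windows follow the RefSeq starts, and a second annotation places some gene starts elsewhere. By it Thrsp extends to chr7:97417730, so the Thrsp sequence shown lies inside the gene. Elovl6 starts at chr3:129532355 by it, so the Elovl6 sequence shown runs past that start. The Elovl6 and Acaca windows held none of the 4 motifs. A match describes letters only, and the letters were read from the reference, not from these animals.

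Total counts were 44421797 in tumour kidney and 42480786 in wild type kidney, and between 21358854 and 32607835 in the muscle libraries. Neither beta-arrestin gene was lower in both libraries labelled knockout than in the wild type libraries. Arrb1 was at 28.2 CPM (normalised read count, scaled to a common library size) in the library labelled knockout DKK1 and 20.5 CPM in the library labelled knockout PBS, against 22.1 CPM in wild type DKK1 and 17.3 and 20.3 CPM in wild type PBS. Arrb2 was at 7.98 CPM in knockout DKK1 and 9.61 CPM in knockout PBS, against 8.32 CPM in wild type DKK1 and 7.59 and 7.86 CPM in wild type PBS. Counts over a whole gene do not show whether a deleted part is missing. The labels are therefore given as names only, and every direction drawn from a knockout library below refers to the library so labelled. Skeletal muscle markers summed to between 104678 and 330843 CPM in the muscle libraries and kidney tubule markers to 18157 CPM in tumour kidney and 36178 CPM in wild type kidney. The deposited tables carry a letter that puts tumour MDC, tumour PBS and the first wild type PBS library into set B, and the other 4 muscle libraries into set C; what the letter stands for is not given. Slow fibre markers had a summed level of 57.7 to 6596 CPM across the muscle libraries, and the wild type pair differed in them by 5.42 (median log2).

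The 10 genes covered a wide range of levels in muscle. Per length, in the authors' RPKM, Me1 was the highest with a median of 105 over the 7 muscle libraries, followed by Acacb (29.7), Thrsp (26.4), Gpam (23.8), Scd1 (17.4) and Srebf1 (15.6). Acly (4.77), Fasn (3.62), Acaca (2.11) and Elovl6 (0.244) had the lowest medians. Spread between libraries did not follow level. On the log2 CPM scale the SD over the 7 libraries was 1.83 for Scd1, 1.82 for Gpam, 1.67 for Elovl6 and 1.62 for Fasn, each larger than in 97.3% to 98.5% of the genes tested. Acacb (0.28) and Srebf1 (0.33) had the smallest SDs, larger than in 24.6% and 31.3% of genes.

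**Figure D1:**
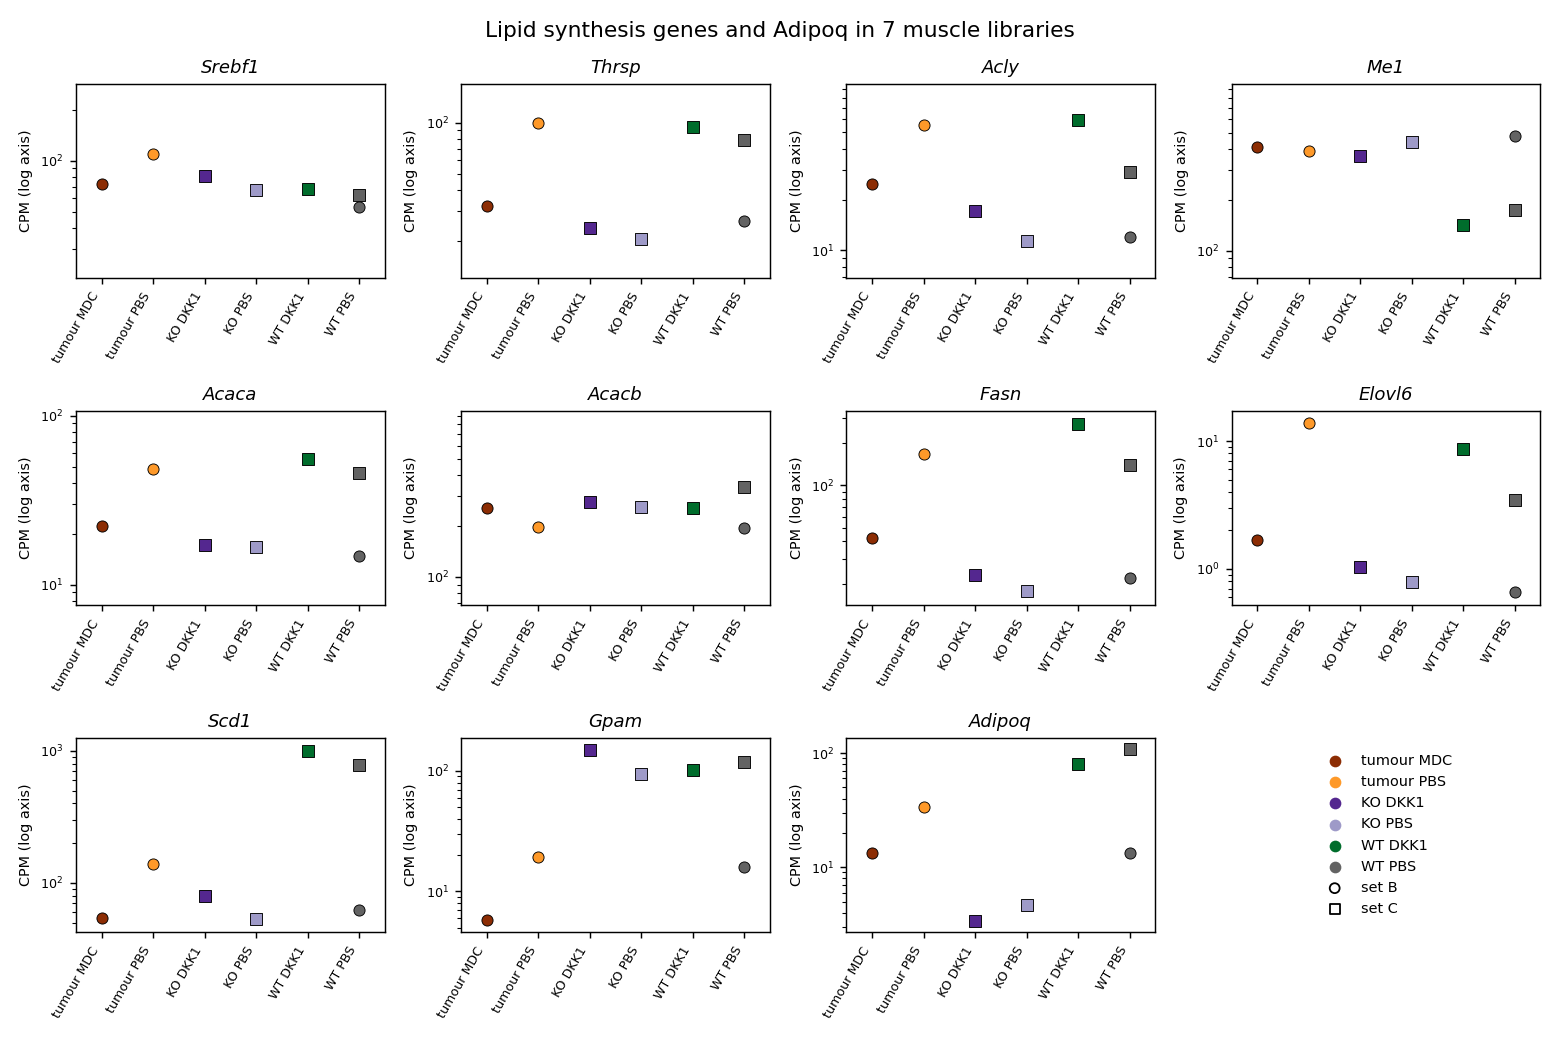
Level of each lipid synthesis gene and of Adipoq in the 7 muscle libraries, in TMM-scaled CPM on a log axis, by group; each point is 1 library, circles are set B and squares set C. Tumour PBS, wild type DKK1 and wild type PBS library 2 are the highest libraries for Thrsp, Acly, Acaca, Fasn and Elovl6. For Acly and Elovl6, wild type PBS library 2 lies closer to tumour MDC than to tumour PBS or wild type DKK1. Srebf1 and Acacb span about 2-fold.

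The regulators did not follow each other. Srebf1 was at 73.2 CPM in tumour MDC, 109 CPM in tumour PBS, 81.4 CPM in knockout DKK1, 67.4 CPM in knockout PBS, 68.0 CPM in wild type DKK1 and 53.2 and 62.3 CPM in wild type PBS. The highest library was 2.05-fold above the lowest, and the step up to tumour PBS was the only gap between neighbouring libraries wider than the gap of the wild type pair. Thrsp was at 32.1 CPM in tumour MDC, 100.2 CPM in tumour PBS, 23.9 CPM in knockout DKK1, 20.6 CPM in knockout PBS, 94.7 CPM in wild type DKK1 and 26.1 and 78.9 CPM in wild type PBS. Thrsp was thus high in 3 libraries and low in 4, with 1 wild type PBS library on each side.

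Among the genes that supply the building blocks, Acly had its higher levels in the same libraries as Thrsp, but wild type PBS library 2 lay close to tumour MDC. Acly was at 24.7 CPM in tumour MDC, 55.7 CPM in tumour PBS, 17.2 CPM in knockout DKK1, 11.4 CPM in knockout PBS, 59.1 CPM in wild type DKK1 and 12.1 and 29.3 CPM in wild type PBS. Me1 went the other way, at 411 CPM in tumour MDC, 391 CPM in tumour PBS, 362 CPM in knockout DKK1, 441 CPM in knockout PBS, 141 CPM in wild type DKK1 and 477 and 173 CPM in wild type PBS. Its lowest levels were in wild type DKK1 and wild type PBS library 2, the libraries with the highest Scd1.

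The paired carboxylases differed in spread. Acaca, the cytosolic form, was at 22.3 CPM in tumour MDC, 48.3 CPM in tumour PBS, 17.2 CPM in knockout DKK1, 16.6 CPM in knockout PBS, 55.4 CPM in wild type DKK1 and 14.7 and 45.5 CPM in wild type PBS. Acacb, the form bound to mitochondria, was at 256 CPM in tumour MDC, 197 CPM in tumour PBS, 277 CPM in knockout DKK1, 259 CPM in knockout PBS, 257 CPM in wild type DKK1 and 194 and 341 CPM in wild type PBS. The wild type pair held the lowest and the highest Acacb of all 7 libraries, so no muscle group lay outside it.

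Fasn was at 42.0 CPM in tumour MDC, 168 CPM in tumour PBS, 23.2 CPM in knockout DKK1, 17.7 CPM in knockout PBS, 270.4 CPM in wild type DKK1 and 21.8 and 139 CPM in wild type PBS. The highest library was 15.2-fold above the lowest, and the wild type pair alone differed 6.37-fold. Elovl6 was at 1.70 CPM in tumour MDC, 13.8 CPM in tumour PBS, 1.03 CPM in knockout DKK1, 0.784 CPM in knockout PBS, 8.60 CPM in wild type DKK1 and 0.656 and 3.45 CPM in wild type PBS. These Elovl6 levels rest on 38, 469, 34, 19, 336, 14 and 79 counts in the same order of libraries, the fewest of the 10 genes in muscle. Elovl6 was highest in tumour PBS, whereas Fasn was highest in wild type DKK1.

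Scd1 was at 54.2 CPM in tumour MDC, 139 CPM in tumour PBS, 79.1 CPM in knockout DKK1, 53.3 CPM in knockout PBS, 1002 CPM in wild type DKK1 and 62.2 and 781 CPM in wild type PBS. Only wild type DKK1 and wild type PBS library 2 exceeded 139 CPM of Scd1, and the wild type pair differed 12.6-fold. Gpam was at 5.76 CPM in tumour MDC, 19.1 CPM in tumour PBS, 150.4 CPM in knockout DKK1, 93.6 CPM in knockout PBS, 102 CPM in wild type DKK1 and 15.8 and 118 CPM in wild type PBS. Gpam separated the sets rather than the groups: all 4 libraries of set C were at or above 93.6 CPM and all 3 of set B at or below 19.1 CPM. Set and group cannot be told apart for any group but wild type PBS.

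The spread of the wild type pair limits every comparison with wild type PBS. Library 2 was at least 2-fold above library 1 in 7 of the 10 genes, and at least 2-fold below it in 1, Me1, with a median log2 difference of 1.61 (library 2 minus library 1). The same difference was 2.52 for the 16 adipocyte markers, of which 14 were at least 2-fold higher in library 2. Adipoq itself was at 13.3 CPM in tumour MDC, 33.4 CPM in tumour PBS, 3.40 CPM in knockout DKK1, 4.70 CPM in knockout PBS, 79.8 CPM in wild type DKK1 and 13.4 and 109 CPM in wild type PBS. In bulk tissue, fewer fat cells and less RNA per fat cell cannot be told apart.

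Whether a gene changed was asked with edgeR's quasi-likelihood test on the counts of all 7 muscle libraries, adjusted by the Benjamini-Hochberg method. The test took its spread from the wild type pair, whose libraries are of sets B and C. It thus judged comparisons within a set by a difference between sets too. It called 0 of 15482 genes (0%) in each of the 7 muscle comparisons, and every lipid synthesis gene had an adjusted p of 1. A size rule was therefore used as a description: a change of at least 2-fold with 100 or more counts in the higher library, and against each of the wild type PBS libraries where these were the reference. The 4 comparisons with wild type PBS share its 2 libraries, and each of the tumour MDC, tumour PBS, knockout DKK1, knockout PBS and wild type DKK1 libraries enters 2 of the 7 comparisons. Log2 changes against wild type PBS were taken from the mean of the log2 CPM of its 2 libraries, so where these lie far apart they differ from the log2 ratio of the mean CPM printed beside them.

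**Figure D2:**
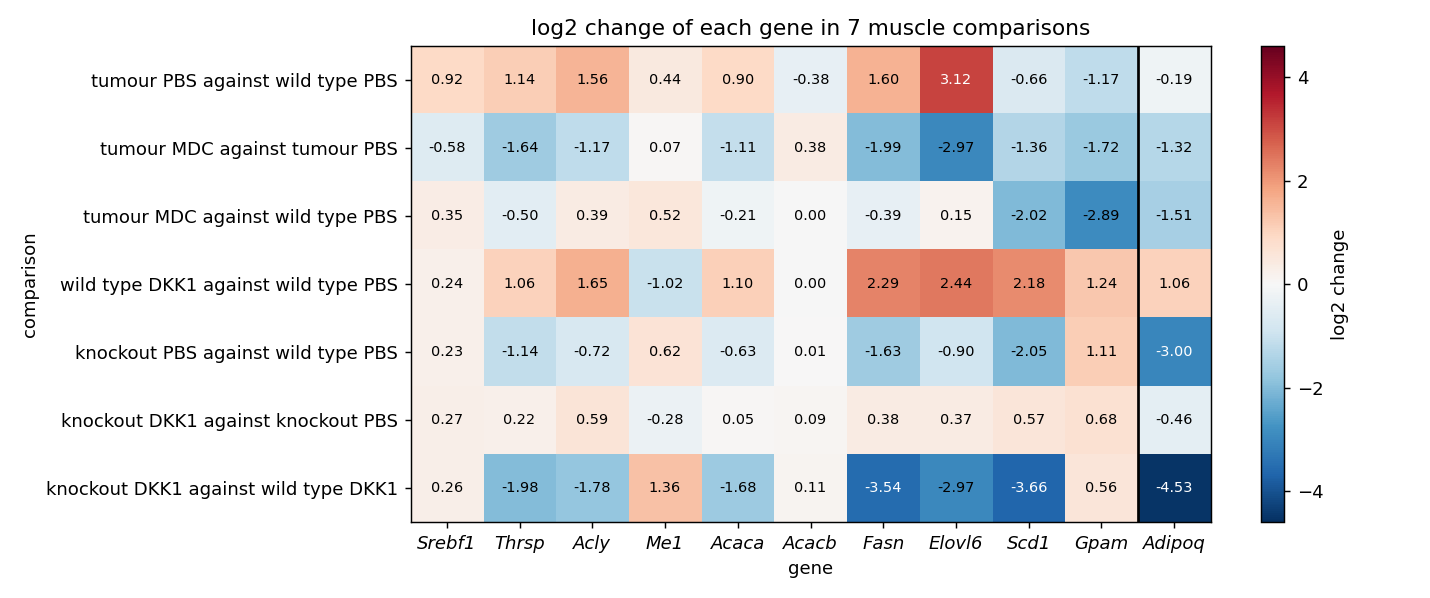
log2 change of each lipid synthesis gene (columns) and of Adipoq (last column) in the 7 muscle comparisons (rows), each written as group against its reference; red is higher and blue lower, and wild type PBS is the mean log2 CPM of 2 libraries. The columns of Thrsp, Acly, Acaca, Fasn, Elovl6 and Scd1 are blue by more than 1 in both tumour MDC against tumour PBS and knockout DKK1 against wild type DKK1, where Adipoq is at -1.32 and -4.53.

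In muscle of tumour-bearing mice given PBS, 6 of the 10 genes stood above both wild type PBS libraries (Elovl6, Acly, Srebf1, Thrsp, Fasn and Acaca), and of these only Elovl6 passed the size rule. Elovl6 was at 13.8 CPM in tumour PBS and 2.05 ± 1.97 CPM in wild type PBS (SD, n = 2), a log2 change of 3.12, or 4.25 against library 1 and 1.98 against library 2. Upward 0.956% of all genes were past the size rule, and downward 0.297%, with 0 of the 10 genes. The median log2 change of the 10 genes was 0.91, against 0.03 for all genes, and it was 1.44 against wild type library 1 and 0.31 against library 2. Fasn was at 168 CPM in tumour PBS and 80.5 ± 82.9 CPM in wild type PBS, 2.94 above library 1 but 0.27 above library 2 on the log2 scale. Scd1 lay between the wild type libraries, with log2 changes of 1.16 against library 1 and -2.49 against library 2. In edgeR 165 of all genes and 2 of the 10, Elovl6 and Acly, had an unadjusted p under 0.05. DESeq2 called 12 genes and 0 of the 10, and limma called 0 genes. Of the marker lists, 9 of 11 neutrophil, 2 of 10 endothelial and 1 of 3 erythroid markers were past the size rule upward. Neutrophil markers summed to 346 CPM in tumour PBS, against 14.2 and 5.24 CPM in wild type PBS, and endothelial markers to 679 CPM in tumour PBS, against 323 and 518 CPM in wild type PBS. Adipoq had log2 changes of 1.32 against library 1 and -1.70 against library 2, and 0 of 16 adipocyte markers passed. The part of these cell types in the values was not tested.

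MDC in tumour-bearing mice went with lower levels of most of the pathway. In tumour MDC muscle 7 of the 10 genes were at least 2-fold lower than in tumour PBS muscle: Elovl6, Fasn, Gpam, Thrsp, Scd1, Acly and Acaca. Downward, 2.29% of all genes were past the size rule, and upward 0.833%, with 0 of the 10 genes. Elovl6 was at 1.70 CPM in tumour MDC and 13.8 CPM in tumour PBS, a ratio of 0.123 (95% interval 0.0860 to 0.171), and Fasn at 42.0 CPM in tumour MDC and 168 CPM in tumour PBS, a ratio of 0.251 (0.234 to 0.269). These exact binomial intervals cover counting error only. The other 5 had log2 changes of -1.72 (Gpam), -1.64 (Thrsp), -1.36 (Scd1), -1.17 (Acly) and -1.11 (Acaca), while Srebf1 (-0.58), Me1 (0.07) and Acacb (0.38) did not reach 2-fold. Their median was -1.26, against 0.00 for all genes. Adipoq was at 13.3 CPM in tumour MDC and 33.4 CPM in tumour PBS (log2 change -1.32), so Elovl6 was lower by more than Adipoq and Acaca by less. With edgeR, DESeq2 and limma 0 genes were called here, and an unadjusted edgeR p under 0.05 was found for 38 genes, of which 1 was in the pathway, Elovl6.

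Related genes outside the 10 showed part of the same difference between tumour MDC and tumour PBS. Of 27 measured genes of fatty acid supply, elongation and desaturation, 2 were past the size rule, both lower: Slc25a1, the mitochondrial citrate carrier, at 8.40 CPM in tumour MDC and 42.4 CPM in tumour PBS, and Aacs, which activates acetoacetate for lipid synthesis, at 3.80 CPM in tumour MDC and 9.18 CPM in tumour PBS. Of 14 genes of triglyceride assembly, Agpat2 (log2 change -1.64) and Dgat2 (-1.46), acyltransferases of later steps, were lower. Of 23 regulators, Pparg (-1.21) and Cebpa (-1.02), transcription factors of fat cell formation, were lower. None of the 10 measured NADPH genes and none of the 12 genes of lipolysis and uptake passed in either direction. Beside these, 8 of 16 adipocyte markers, 9 of 11 neutrophil markers, 5 of 11 macrophage markers, 2 of 10 endothelial markers and 1 each of the brown fat, kidney tubule and fibroblast markers were lower, and 10 of 11 slow fibre markers and 2 of 7 liver markers higher, in tumour MDC. Adipocyte markers summed to 1667 CPM in tumour MDC and 2066 CPM in tumour PBS. Without Plin4, Car3 and Pck1, which the tissues here also make, they summed to 541 CPM in tumour MDC and 1035 CPM in tumour PBS. The largest part of these reduced sums was 1 marker, Fabp4, at 349 CPM in tumour MDC and 554 CPM in tumour PBS. The part of these cell types in the differences was not tested.

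Against wild type PBS, the tumour MDC levels fell inside the wild type pair for most genes. Gpam was the 1 gene of the 10 past the size rule, lower, at 5.76 CPM in tumour MDC and 66.8 ± 72.1 CPM in wild type PBS (log2 change -2.89, or -1.44 and -4.34 against libraries 1 and 2), where 0.465% of all genes were past it downward. Upward it was 0 of the 10, against 0.504% of all genes. Over the 10 genes the median was -0.11, and it was 0.43 against library 1 and -1.01 against library 2. Tumour MDC is in set B, as is wild type library 1, which had 15.8 CPM of Gpam. In edgeR 231 genes and 2 of the 10, Gpam and Scd1, had an unadjusted p under 0.05, DESeq2 called 11 genes and 0 of the 10, and limma called 0 genes. Among cholesterol genes Hsd17b7 was higher (log2 change 1.37) and Msmo1 lower (-1.41). Of the marker lists, 6 of 11 slow fibre, 2 of 11 neutrophil, 2 of 10 endothelial and 1 of 3 erythroid markers were higher and 1 of 16 adipocyte markers lower, and their part was not tested.

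In wild type mice given DKK1, Acly and Elovl6 lay above both wild type PBS libraries by at least 2-fold. Elovl6 was at 8.60 CPM in wild type DKK1 and 2.05 ± 1.97 CPM in wild type PBS (SD, n = 2; log2 change 2.44, or 3.58 and 1.30 against libraries 1 and 2), and Acly at 59.1 CPM in wild type DKK1 and 20.7 ± 12.2 CPM in wild type PBS (1.65, or 2.28 and 1.01). The size rule was passed upward by 1.73% of all genes and downward by 0.181%, with 0 of the 10 genes lower. Fasn missed it narrowly, at 270.4 CPM in wild type DKK1 and 80.5 ± 82.9 CPM in wild type PBS, with log2 changes of 3.63 and 0.96 against libraries 1 and 2. The median log2 change of the 10 was 1.17, but only 0.27 against library 2, which belongs to the same set as wild type DKK1. Adipoq had log2 changes of 2.57 against library 1 and -0.44 against library 2. In edgeR 206 genes and 2 of the 10, Acly and Fasn, had an unadjusted p under 0.05, DESeq2 called 4 genes and 0 of the 10, and limma called 0 genes. G0s2, an inhibitor of fat cell lipolysis, was the 1 gene of 12 in the lipolysis list past the size rule, at 94.9 CPM in wild type DKK1 and 27.3 ± 17.8 CPM in wild type PBS. Of the marker lists, 3 of 10 endothelial, 2 of 10 fibroblast, 1 of 11 slow fibre and 1 of 3 erythroid markers were higher and 1 of 12 skeletal muscle markers lower, and their part was not tested.

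The library labelled knockout PBS had 0 of the 10 genes past the size rule in either direction against wild type PBS, where 0.523% of all genes were higher and 0.433% lower. Its levels of Fasn, Acly, Scd1 and Thrsp were below both wild type libraries, with log2 changes between -0.34 (Thrsp) and -0.09 (Acly) against library 1. Fasn was at 17.7 CPM in knockout PBS and 80.5 ± 82.9 CPM in wild type PBS, with log2 changes of -0.30 and -2.97 against libraries 1 and 2. Adipoq was lower than both, at 4.70 CPM in knockout PBS and 61.0 ± 67.4 CPM in wild type PBS (log2 change -3.00), along with 5 of 16 adipocyte markers. The median log2 change of the 10 was -0.68, and it was 0.05 against library 1 and -1.40 against library 2. In edgeR 182 genes and 2 of the 10, Scd1 and Fasn, had an unadjusted p under 0.05, DESeq2 called 19 genes and 0 of the 10, and limma called 0 genes. Among related genes, Agpat2 (-2.35), Dgat1 (-1.21), which closes triglyceride assembly, the lipoprotein lipase inhibitor Angptl4 (-2.15) and the monoglyceride lipase Mgll (-1.35) were lower, and Acsl3, which activates fatty acids, was higher at 63.3 CPM in knockout PBS and 18.9 CPM on average in wild type PBS (log2 changes 1.98 and 1.54 against libraries 1 and 2). Acsl3 was also past the size rule in tumour PBS, at 56.1 CPM, a comparison that uses the same wild type libraries.

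DKK1 in mice labelled knockout went with small differences in the pathway. Between the libraries labelled knockout DKK1 and knockout PBS, 0 of the 10 genes passed the size rule, where 1.52% of all genes were higher and 0.478% lower. Log2 changes ran between -0.28 for Me1 and 0.68 for Gpam, with a median of 0.32, and 9 of the 10 were above 0. Gpam was at 150.4 CPM in knockout DKK1 and 93.6 CPM in knockout PBS, a ratio of 1.61 (95% interval 1.53 to 1.69, counting error only). None of the 3 tools, edgeR, DESeq2 and limma, called a gene, and an unadjusted edgeR p under 0.05 was found for 48 genes and 0 of the 10. Dgat2 was at 117 CPM in knockout DKK1 and 40.1 CPM in knockout PBS, and Idh2, a mitochondrial source of NADPH, at 307 CPM in knockout DKK1 and 109.7 CPM in knockout PBS. All 11 slow fibre markers were higher in knockout DKK1, with a median log2 change of 5.04, as were 2 of 10 fibroblast, 1 of 12 skeletal muscle and 1 of 3 erythroid markers, and 2 of 11 macrophage markers were lower. Their part in these values was not tested.

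The largest median difference of the 7 muscle comparisons lay between the libraries labelled knockout DKK1 and wild type DKK1, both of set C. Fasn was at 23.2 CPM in knockout DKK1 and 270.4 CPM in wild type DKK1, a ratio of 0.0857 (95% interval 0.0796 to 0.0923, counting error only), and Scd1 at 79.1 CPM in knockout DKK1 and 1002 CPM in wild type DKK1, a ratio of 0.0790 (0.0759 to 0.0822). Elovl6 (log2 change -2.97), Thrsp (-1.98), Acly (-1.78) and Acaca (-1.68) were lower too, so that 6 of the 10 genes were past the size rule downward, against 7.46% of all genes. Me1 was the 1 gene past it upward, where 1.99% of all genes were, at 362 CPM in knockout DKK1 and 141 CPM in wild type DKK1. Srebf1 (0.26), Acacb (0.11) and Gpam (0.56) stayed within 2-fold. The median log2 change of the 10 was -1.73, against -0.02 for all genes, and Adipoq was at 3.40 CPM in knockout DKK1 and 79.8 CPM in wild type DKK1 (-4.53). In edgeR 218 genes and 5 of the 10 (Fasn, Scd1, Thrsp, Elovl6 and Acly) had an unadjusted p under 0.05, DESeq2 called 6 genes and 0 of the 10, and limma called 0 genes. The test of whether the DKK1 difference itself depended on the knockout label called 0 genes in edgeR, with 44 genes at an unadjusted p under 0.05 and unadjusted p-values of 0.303 to 0.969 for the 10 genes.

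Other genes of the pathway were lower in knockout DKK1 as well. Of the 27 genes of fatty acid supply, elongation and desaturation, 11 were past the size rule downward and 0 upward, led by the elongase Elovl7 at 0.485 CPM in knockout DKK1 and 10.4 CPM in wild type DKK1, and by Aacs at 2.76 CPM in knockout DKK1 and 26.1 CPM in wild type DKK1. Among regulators, Cebpa was at 9.71 CPM in knockout DKK1 and 52.8 CPM in wild type DKK1, and Pparg at 3.16 CPM in knockout DKK1 and 14.7 CPM in wild type DKK1. Prkag3 (log2 change 1.67) and Prkab2 (1.02), subunits of the AMP-activated kinase that inhibits the carboxylases, were higher. Agpat2 (-2.48), the pentose phosphate enzyme Tkt (-1.98), Acat2 (-1.07), Angptl4 (-3.20) and the hormone-sensitive lipase Lipe (-1.89) were lower. Of the cell type lists, 13 of 16 adipocyte markers, 9 of 10 endothelial markers, 4 of 10 fibroblast markers, 2 of 6 brown fat markers and 1 of 7 liver markers were lower and 9 of 11 slow fibre markers higher, and of 12 skeletal muscle markers 2 were higher and 1 lower. All 16 adipocyte markers summed to 1553 CPM in knockout DKK1 and 2213 CPM in wild type DKK1. Without Plin4, Car3 and Pck1 the sums were 142 CPM in knockout DKK1 and 1120 CPM in wild type DKK1. Fabp4 was again their largest part, at 93.1 CPM in knockout DKK1 and 394 CPM in wild type DKK1. Endothelial markers summed to 334 CPM in knockout DKK1 and 989 CPM in wild type DKK1. The part of all these cell types in the differences was not tested.

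The question whether the 10 genes follow fat content was put to the 7 muscle libraries by correlating log2 CPM with that of Adipoq. Fasn (Pearson r = 0.90), Thrsp (0.90), Acaca (0.88) and Scd1 (0.87) were higher in libraries with more Adipoq, Acly and Elovl6 had r = 0.74 each, Acacb (0.19), Gpam (0.04) and Srebf1 (-0.06) had coefficients near 0, and Me1 had a negative one (-0.78). Thus 4 of the 10 genes reached r of 0.75, as did 943 of the 15481 genes tested (6.09%). By the exact permutation test over all 5040 orders of the libraries, two-sided, p was 0.0123 for Fasn, 0.0119 for Thrsp, 0.0190 for Acaca and 0.0137 for Scd1. Adjusted over all 15481 genes these became 0.449, 0.447, 0.473 and 0.462, and 0 genes had an adjusted permutation p under 0.05, whereas 9.75% of all genes had an unadjusted one. Spearman's rho was 0.71 for Fasn (exact permutation p = 0.0881), 0.79 for Thrsp (p = 0.0480), 0.64 for Acaca (p = 0.139) and 0.75 for Scd1 (p = 0.0663), with adjusted p-values of 0.748, 0.729, 0.748 and 0.748.

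**Figure D3:**
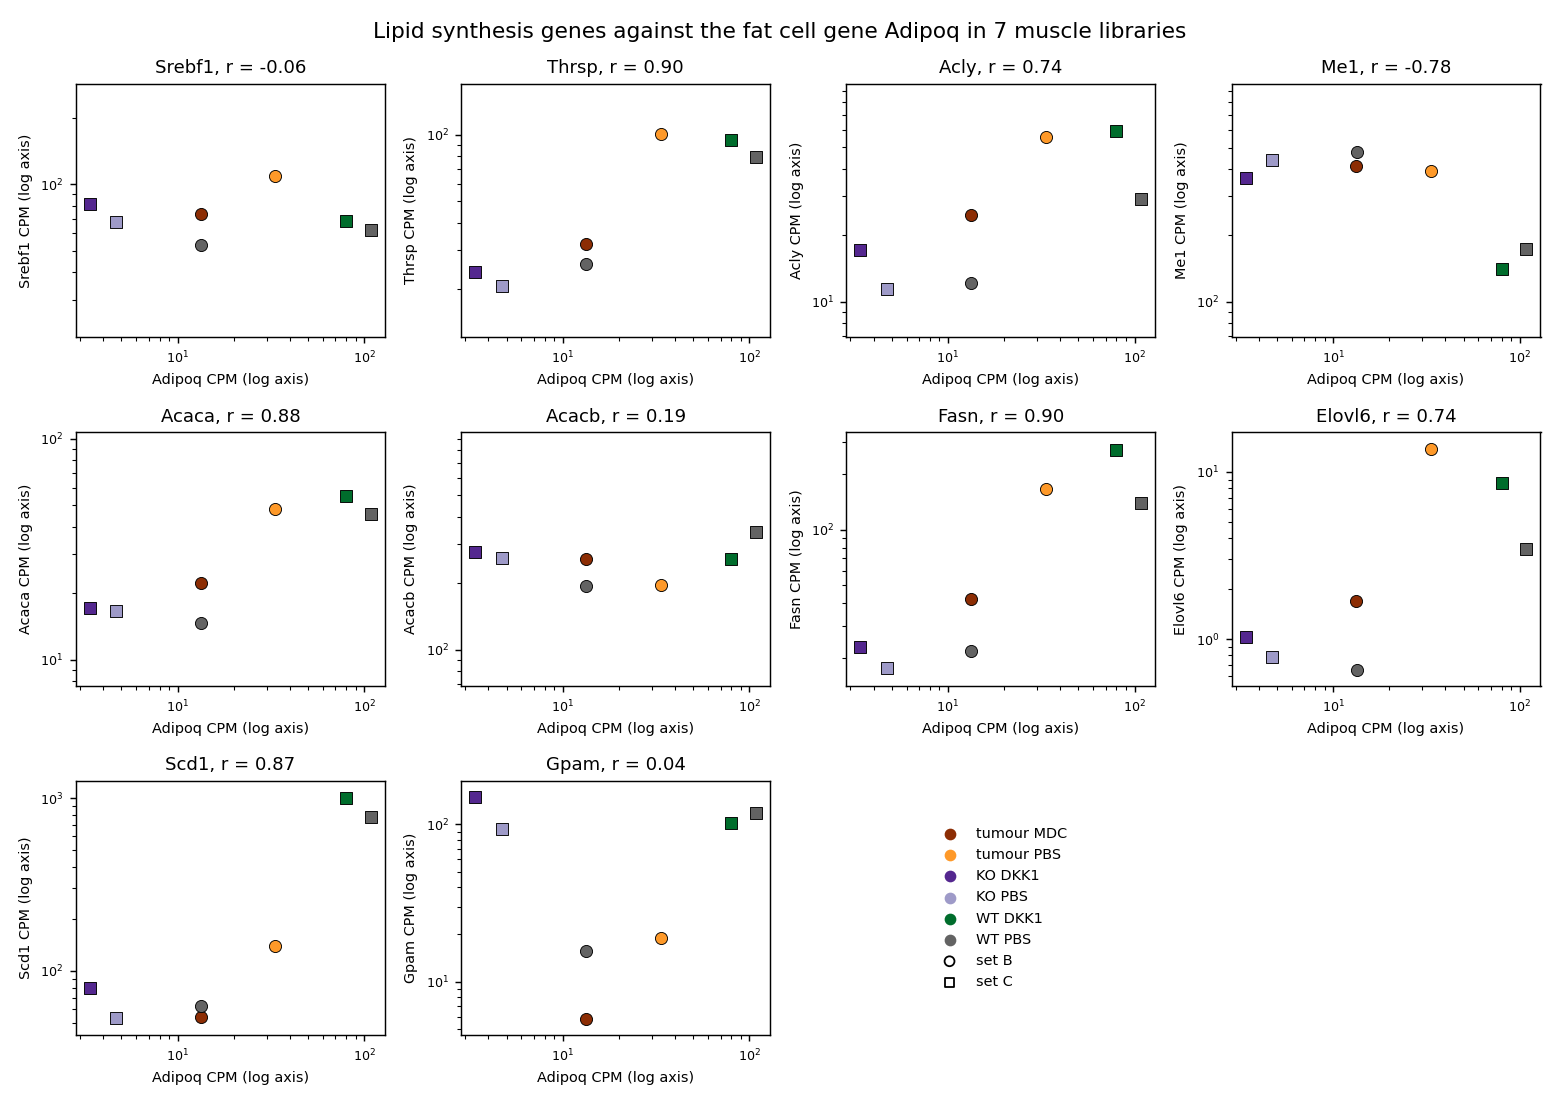
Level of each lipid synthesis gene against that of Adipoq in the 7 muscle libraries, both in CPM on log axes; each point is 1 library, coloured by group, circles set B and squares set C, with Pearson r of log2 CPM above each panel. Fasn, Thrsp and Acaca are higher in tumour PBS and wild type DKK1 than in the knockout, tumour MDC and first wild type PBS libraries, which had less Adipoq. Among the latter libraries they are not in the order of Adipoq. They are no higher in wild type PBS library 2, where Adipoq is highest.

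Within set C the relation was looser than the coefficients read alone. For Scd1 it was also much weaker without the libraries farthest from the median of Adipoq, whereas Elovl6 and Acly hardly moved. Without wild type PBS library 2 and wild type DKK1, the libraries farthest from the median of Adipoq, r was 0.83 for Fasn, 0.85 for Thrsp, 0.749 for Acaca, 0.55 for Scd1, 0.73 for Acly and 0.747 for Elovl6. Me1 then had r = 0.17, so its negative coefficient rested on those libraries. Acacb had r = -0.81 and Gpam -0.77 without them. Within set B, Fasn, Thrsp, Acaca, Acly and Elovl6 were in the order of Adipoq in 2 of 3 pairs of libraries and Scd1 in 3 of 3. Within set C all 6 were in that order in 4 of 6 pairs: wild type DKK1 had more Fasn and less Adipoq than wild type PBS library 2, and knockout DKK1 more Fasn and less Adipoq than knockout PBS.

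**Figure D4:**
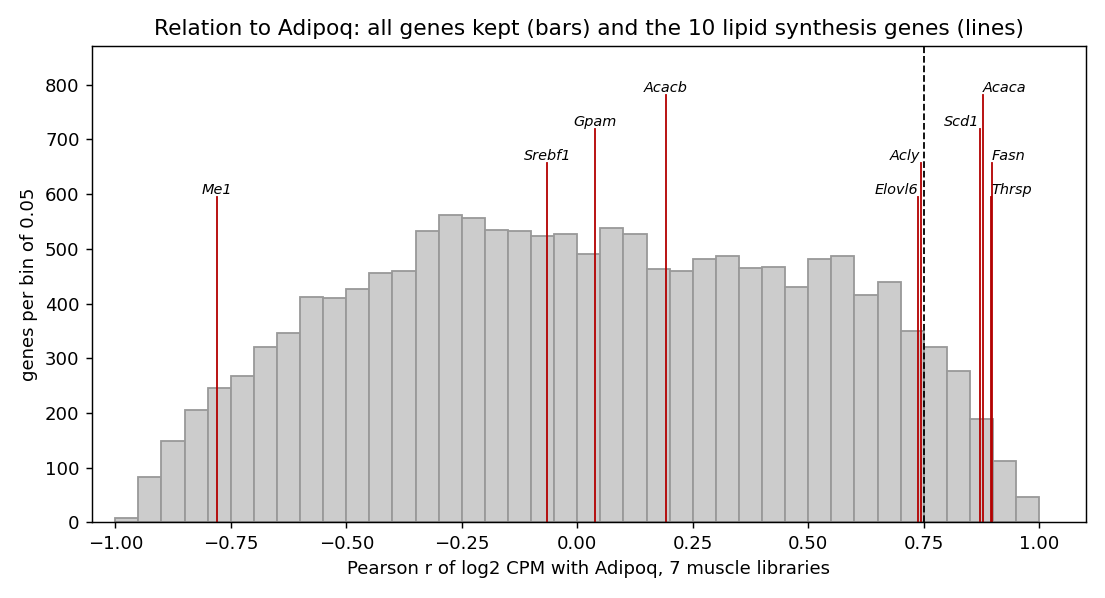
Number of genes per bin of Pearson r with Adipoq over the 7 muscle libraries, for the 15481 genes tested (bars), with the 10 lipid synthesis genes as labelled lines and r of 0.75 dashed. Fasn, Thrsp, Acaca and Scd1 lie right of the dashed line, Elovl6 and Acly just left of it, and Me1 at the other end.

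Amounts relative to Adipoq varied between libraries as well. Adipoq itself spanned 32.0-fold across the muscle libraries and Fasn 15.2-fold, and the Fasn to Adipoq ratio of CPM still spanned 5.33-fold. That ratio was 3.16 in tumour MDC, 5.01 in tumour PBS, 6.82 in knockout DKK1, 3.77 in knockout PBS, 3.39 in wild type DKK1 and 1.64 and 1.28 in wild type PBS. Every other group therefore had more Fasn per Adipoq than either wild type PBS library. The Elovl6 to Adipoq ratio was 0.128 in tumour MDC, 0.412 in tumour PBS, 0.304 in knockout DKK1, 0.167 in knockout PBS, 0.108 in wild type DKK1 and 0.0491 and 0.0317 in wild type PBS, again lowest in both wild type PBS libraries. For the Scd1 to Adipoq ratio the span was 5.71-fold and for Gpam 102-fold. The slope of log2 CPM per log2 unit of Adipoq was 0.76 for Fasn, 0.83 for Scd1, 0.65 for Elovl6, 0.47 for Thrsp, and 0.38 each for Acaca and Acly.

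Of the other marker lists, brown fat and endothelial markers came closest to Adipoq, with a median r of 0.78 and 0.74. The median was 0.52 for fibroblast, 0.45 for macrophage, -0.03 for slow fibre and -0.50 for skeletal muscle markers. When the mean log2 CPM of each of the 11 marker lists took the place of Adipoq, a comparison chosen after the data were seen, Fasn had r = 0.92 with the 16 adipocyte markers and 0.93 with the 10 endothelial markers. For Acly r was 0.78 with adipocyte and 0.97 with endothelial markers, for Elovl6 0.77 and 0.91, for Acaca 0.90 and 0.89, for Thrsp 0.92 and 0.88, and for Scd1 0.87 and 0.68. Scd1 had r = -0.91 and Me1 0.91 with the skeletal muscle markers. With the fibroblast markers r was 0.87 for Scd1 and -0.90 for Me1, and with the brown fat markers 0.88 and -0.79. Of these 110 Pearson coefficients 0 had an adjusted p under 0.05 in the exact permutation test (smallest 0.0618), and 22 had an unadjusted one. Endothelial markers summed to 522 CPM in tumour MDC, 679 CPM in tumour PBS, 334 CPM in knockout DKK1, 291 CPM in knockout PBS, 989 CPM in wild type DKK1 and 323 and 518 CPM in wild type PBS. With 7 libraries, a relation to fat cell RNA and one to endothelial RNA cannot be told apart.

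The 10 genes formed a tight group of 5 and a looser rest. Across the 7 muscle libraries r was 0.99 between Fasn and Acaca and between Fasn and Thrsp, 0.98 between Acaca and Thrsp and between Elovl6 and Acly, and at least 0.93 for the other pairs of these 5 genes. Scd1 had r of 0.85 with Fasn and -0.97 with Me1. Outside the 10, the genes most like Fasn among 9576 with a mean of at least 5 CPM were Msn (r = 0.997), Cd300lg (0.993), Pgrmc1 (0.992), Slc25a1 (0.988) and Leprot (0.987). Those most like Elovl6 were Rapgef3 (0.987), S100a11 (0.980), Arpc5 (0.980), Pkp4 (0.972) and Rab3il1 (0.968). These coefficients describe 7 libraries that share their scaling and were not tested. Slc25a1 was at 8.40 CPM in tumour MDC, 42.4 CPM in tumour PBS, 4.79 CPM in knockout DKK1, 3.22 CPM in knockout PBS, 44.7 CPM in wild type DKK1 and 5.81 and 31.7 CPM in wild type PBS.

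Of the related lists, lipolysis and fatty acid uptake came closest to the 10 genes in the median r with Adipoq. Its 12 genes had a median r of 0.72, with 5 at 0.75 or above (Lipe, Mgll, Pnpla2, Angptl4 and Gpihbp1), beside a median of 0.74 for the 10 genes and 0.02 for all genes. Fatty acid supply, elongation and desaturation had 11 of 27 genes at or above 0.75, triglyceride assembly 4 of 14, NADPH supply 4 of 10, regulators 4 of 23 and cholesterol synthesis 3 of 21. Of the 15 adipocyte markers other than Adipoq, 12 reached 0.75, among them Lipe, which is also on the lipolysis list. Of the endothelial markers 4 of 10 did.

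Kidney of tumour-bearing mice had more RNA of 8 of the 10 genes than wild type kidney, in 1 library each, so there is no replicate check. Thrsp was at 115 CPM in tumour kidney and 35.4 CPM in wild type kidney, a ratio of 3.25 (95% interval 3.07 to 3.45, counting error only). Acacb was at 93.0 CPM in tumour kidney and 29.5 CPM in wild type kidney (ratio 3.15). Fasn was at 419 CPM in tumour kidney and 136 CPM in wild type kidney (3.08), and Acaca at 103 CPM in tumour kidney and 46.9 CPM in wild type kidney (2.19). These 4 were past the 2-fold size rule, against 4.59% of all genes. Elovl6 was at 56.0 CPM in tumour kidney and 28.9 CPM in wild type kidney, just short of it with a ratio of 1.94 (1.81 to 2.08), and the ratios of Scd1 (1.70), Srebf1 (1.69) and Acly (1.22) were smaller. Scd1 was at 389.7 CPM in tumour kidney and 229 CPM in wild type kidney, Srebf1 at 56.5 CPM in tumour kidney and 33.5 CPM in wild type kidney, and Acly at 142 CPM in tumour kidney and 117 CPM in wild type kidney. Me1 was the 1 gene past the rule downward, where 3.25% of all genes were, at 505 CPM in tumour kidney and 1109 CPM in wild type kidney (ratio 0.455, 0.448 to 0.462). Gpam was at 65.5 CPM in tumour kidney and 86.8 CPM in wild type kidney. Over the 10 genes the median log2 change was 0.86, against 0.00 for all genes.

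**Figure D5:**
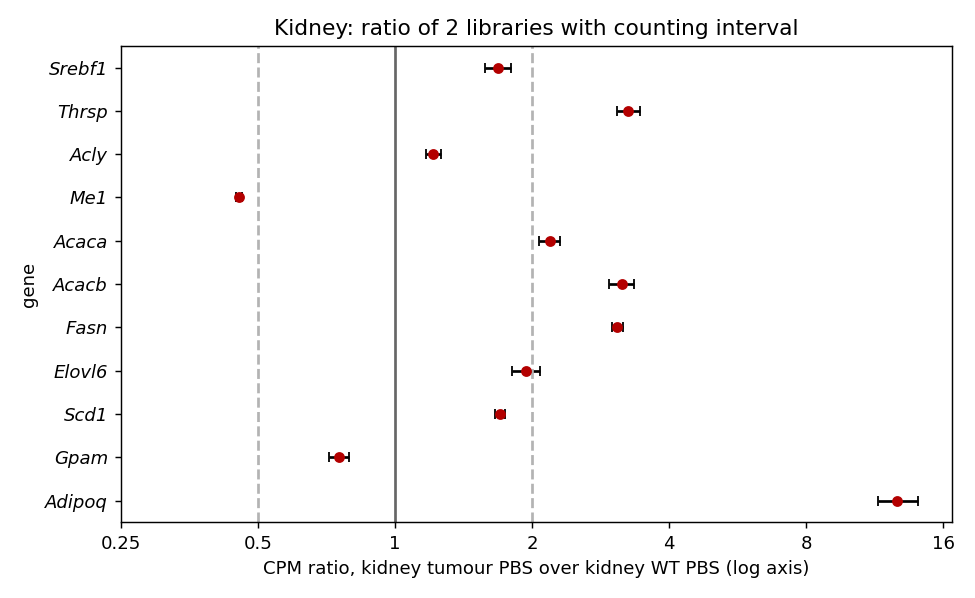
Ratio of CPM in tumour PBS kidney over wild type PBS kidney for each lipid synthesis gene and Adipoq, on a log axis; bars are exact binomial 95% intervals for counting error only, the solid line is a ratio of 1 and the dashed lines are 0.5 and 2. Thrsp, Acacb, Fasn and Acaca lie beyond 2, Me1 below 0.5 and Adipoq far beyond all of them at 12.7.

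Fat cell RNA differed far more between the kidney libraries than the lipid synthesis genes did. Adipoq was at 123 CPM in tumour kidney and 9.71 CPM in wild type kidney, a ratio of 12.7 (11.5 to 14.1), and 11 of 16 adipocyte markers were past the size rule upward and 0 downward, with a median log2 change of 2.25. All 16 adipocyte markers summed to 6022 CPM in tumour kidney and 3572 CPM in wild type kidney. Without Plin4, Car3 and Pck1 the adipocyte markers summed to 1648 CPM in tumour kidney and 220.0 CPM in wild type kidney. The Fasn to Adipoq ratio of CPM was 3.40 in tumour kidney and 14.0 in wild type kidney, within the range of the muscle libraries only in tumour kidney. The part of fat cells in the kidney values was not tested. Also past the rule upward were 2 of 9 neutrophil markers, 2 of 5 brown fat markers, 2 of 11 macrophage markers, 2 of 8 liver markers and 1 of 3 erythroid markers, and of 10 kidney tubule markers 2 were higher and 2 lower. Neutrophil markers summed to 22.0 CPM in tumour kidney and 2.20 CPM in wild type kidney. Endothelial, fibroblast, skeletal muscle and slow fibre markers had 0 past the rule. The part of these cell types was not tested either.

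Related genes in kidney differed in both directions. The elongase Elovl2 was at 81.6 CPM in tumour kidney and 28.6 CPM in wild type kidney, the desaturase Scd2 at 150.2 CPM in tumour kidney and 56.4 CPM in wild type kidney, and the mitochondrial malic enzyme Me3 at 77.5 CPM in tumour kidney and 33.7 CPM in wild type kidney. Pparg was at 15.6 CPM in tumour kidney and 3.26 CPM in wild type kidney, whereas Mlxipl, the carbohydrate-responsive activator of lipid synthesis, was at 43.8 CPM in tumour kidney and 111 CPM in wild type kidney, and the coactivator Ppargc1b at 3.97 CPM in tumour kidney and 12.6 CPM in wild type kidney. Mogat2, an acyltransferase for monoglycerides, was lower (log2 change -1.56), Angptl4 (2.12) and the fatty acid transporter Slc27a1 (1.59) were higher, and Idi1 of cholesterol synthesis was lower (-1.03). Per list, 2 of 28 supply genes were higher and 0 lower, 0 of 14 triglyceride genes higher and 1 lower, 1 of 10 NADPH genes higher, 1 of 23 regulators higher and 2 lower, and 4 of 12 lipolysis and uptake genes higher.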

How the data were processed

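RNA sequencing of mouse muscle (7 libraries) and kidney (2 libraries) was analysed from 1 deposited table per library. The deposited values are raw counts per gene symbol, not normalised by the authors, beside RPKM that the authors derived from them; a recomputed RPKM was within 0.0005% of the deposited one. Alignment was with HISAT2 2.1.0 to mm10, per the submitters' processing notes. How reads were counted, on which annotation and with what strand setting is not given in the sources used here. Groups follow the labels.

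Counts were scaled with TMM in edgeR 4.0.16 (R 4.3.3), and log2 CPM used a prior count of 2. filterByExpr with a minimum count of 10 kept 15482 genes in muscle and 15986 in kidney, with all 10 lipid synthesis genes in both. The muscle test was edgeR's quasi-likelihood F test in 1 model of the 7 libraries and 6 groups, with Benjamini-Hochberg adjustment over all genes kept; the wild type pair gives its 1 residual degree of freedom, and the biological coefficient of variation was 0.498. Kidney had no test. Ratios carry exact conditional binomial 95% intervals. DESeq2 1.42.0, limma 3.58.1, other scalings, filters, prior counts and fold thresholds, and fits without each wild type PBS library were alternatives. The methods were tested on simulated data for tumour PBS against wild type PBS muscle, with the same coefficient of 0.498. Where a 4-fold difference had been put in, edgeR detected 7 genes out of 67, and the size rule detected 50. With 16-fold differences edgeR detected 44 out of 67, and with 64-fold differences 63 out of 66. The absence of edgeR calls in muscle therefore does not show that levels were unchanged.

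All 10 genes were named throughout, with up to 2 genes in each direction per pathway list past the size rule in a comparison and the 5 genes most like Fasn and Elovl6. The genes and lists were chosen with earlier results of these data known. Promoter sequences are from RefSeq, build GRCm38.p6. Some results for cholesterol synthesis genes are not reported here.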

Additional observations from a re-analysis of the deposited data

How the results depend on the processing

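No paired analysis was possible because no label ties libraries of different groups together. Scaling by total counts or DESeq2 size factors, no filter, and a prior count of 0.5 changed none of the counts of genes past the size rule by over 1.5 times, and 0 genes of the 10 passed a test with DESeq2 or limma. The fold threshold and the wild type library mattered. The shares of all genes past the rule at these other settings are not given here. The counts that follow therefore describe the settings only, and do not set the 10 genes against other genes. With a 1.5-fold size the genes counted higher became 7 in tumour kidney, 3 in tumour PBS muscle against wild type PBS and 2 in knockout DKK1 against knockout PBS. With a 4-fold size they became 0 in tumour kidney, tumour PBS, wild type DKK1 and knockout DKK1 against wild type DKK1, and those counted lower became 0 in tumour kidney, 1 in tumour MDC against tumour PBS, 0 in tumour MDC against wild type PBS and 3 in knockout DKK1 against wild type DKK1. Leaving out wild type library 1 or 2 gave 2 to 7 genes higher and 0 to 2 lower in tumour PBS, 1 higher and 1 to 5 lower in tumour MDC, 2 to 7 higher and 0 to 1 lower in wild type DKK1, and 1 higher and 0 to 5 lower in knockout PBS. The genes at r of 0.75 with Adipoq numbered 2 by Spearman's rho, 2 without the 2 farthest libraries, 5 with the endothelial list and 6 with the adipocyte list. Without the farthest libraries Acaca (0.749) and Elovl6 (0.747) fell just short of 0.75. Me1 reversed without the farthest libraries, to r = 0.17. The cause was not tested. Depth limits Elovl6, which had 14 to 469 counts in muscle.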
